A study of Mus musculus with 6 samples.

Results

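The corpus is the middle segment of the epididymal duct, and the 2 libraries made from its clear cells were compared with the mean of the libraries from the proximal end (caput, 2 libraries) and the distal end (cauda, 2 libraries). The corpus libraries were taken by their region label and make up 2 of the 6 libraries of the series. All 6 come from untreated transgenic mice aged 12 weeks that carry EGFP driven by the promoter of ATP6V1B1, a subunit gene of the proton pump, so the transgene is shared by every group. EGFP-positive cells were sorted in 2 rounds, and each library pools 12 epididymides; the labels give no strain and do not say whether the pools of a region came from separate groups of animals. The p-values therefore measure only the spread between these libraries, which may be technical. Because the sort rests on the promoter of Atp6v1b1, that gene and others with a like pattern were selected for in every region.

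The epididymis is a single coiled duct in which sperm leaving the testis mature, and its lining changes in character from one segment to the next. Clear cells take up material from the lumen and acidify it with an apical vacuolar proton pump, while the neighbouring principal cells secrete most of the proteins that come to coat sperm, and basal cells lie beneath both. Many epididymal genes are known to be switched on in 1 segment only, so a gene need not rise or fall steadily along the duct. The comparison asked which transcripts of the corpus depart from a proximal to distal gradient.

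Each library held 18887128 to 24700717 reads in genes, and 15816 of 37583 genes passed the filter on low counts and were tested. Levels below are CPM (reads of a gene relative to all reads in genes, on a common scale) scaled by edgeR's TMM factors, which ran from 1.381 to 1.414 in caput, 0.911 to 0.946 in corpus and 0.761 to 0.78 in cauda. The 10 most abundant genes held 4.41% to 4.55% of the reads in caput, 18.93% to 19.86% in corpus and 26.25% to 26.91% in cauda. Replicates of each region differed by more than sampling noise and were kept apart. Summed over the 20 clear cell markers, caput libraries held 10756 and 11009 CPM, corpus libraries 2984 and 3446, and cauda libraries 1044 and 1352. Summed over the 20 principal cell markers, the caput libraries held 13159.8 and 13549.6 CPM, the corpus libraries 111816 and 126092, and the cauda libraries 207441 and 211033. On both sums the corpus lay between the ends, the defining clear cell genes Foxi1 and Atp6v1b1 were present in every library, and the principal cell genes Cd52, Gpx3 and Crisp1 were among the abundant ones. In such bulk libraries fewer cells of a type and less RNA per cell cannot be told apart, and the part of the principal cell transcripts in the results below was not tested.

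Nearly as many genes were lower in corpus as were higher. Against the mean of the ends, taken on the log2 scale, 3926 genes were called higher (24.8% of those tested) and 3681 lower (23.3%), at a Benjamini-Hochberg adjusted p under 0.05 in edgeR's quasi-likelihood test over all 15816 genes; 48.1% were called either way. The median log2 difference over all tested genes was -0.03, and with library totals in place of TMM it was -0.19, in which case 3051 genes were higher and 5133 lower. The split also rests on taking the mean of logs: past a log2 difference of 1, regardless of the test, 2025 genes were higher and 1975 lower, against 1450 higher and 2907 lower when the corpus was set against the arithmetic mean of the ends. Differences and their standard errors (SE, the log2 difference divided by the square root of its F value) are given on the log2 scale with 2 libraries per region.

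A call against the mean does not by itself make a peak, since a gene level in corpus and 1 end is called as well. The corpus was therefore also compared with each end, and a gene was taken as above or below both ends when both comparisons were called; these comparisons share the corpus libraries. On that rule 1353 genes were above both ends (8.55% of those tested) and 964 were below both (6.1%). Of these, 698 were above the nearer end by at least 1 on the log2 scale and 398 were below it by as much. Read from the 6 values alone, both corpus libraries lay above all 4 others for 2630 genes (16.6%) and below all 4 for 2304 (14.6%). Among genes called higher, 2287 (58.3%) had corpus above all 4 libraries of the ends, and among genes called lower, 1889 (51.3%) had it below all 4. The rest lay between the ends or overlapped one of them.

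**Figure D1:**
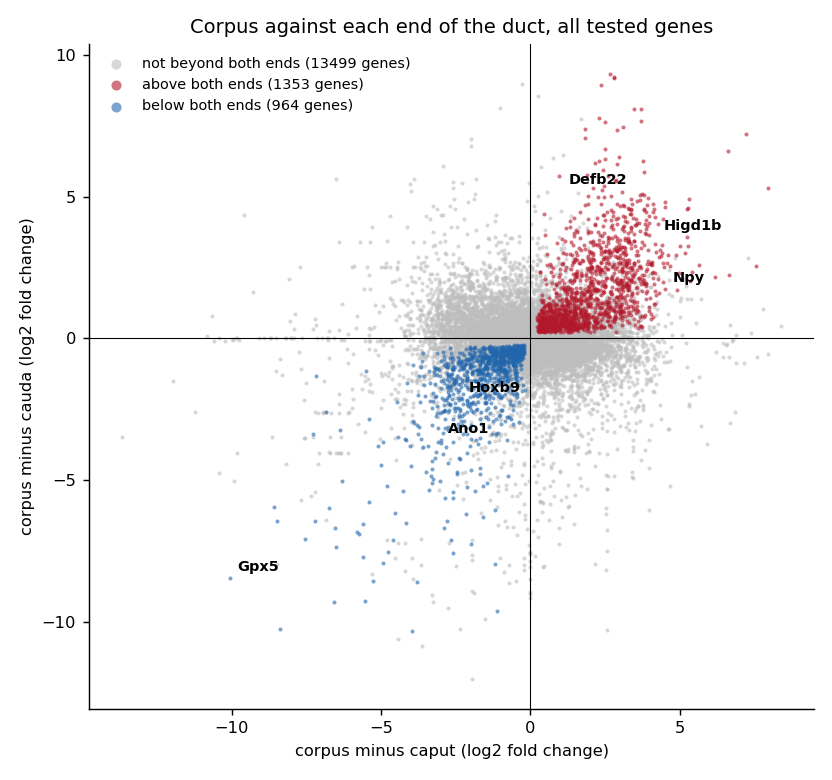
Log2 fold change of each of the 15816 tested genes from caput to corpus (horizontal axis) and from cauda to corpus (vertical axis). The upper right holds the 1353 genes above both ends (red) and the lower left the 964 genes below both (blue), with Gpx5 at -10.05 against caput and -8.45 against cauda; both axes use the same corpus libraries.

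Where caput and cauda themselves differed, the corpus was nearer the cauda. For the 6579 genes called between the ends with a difference of at least 1 on the log2 scale, the position of corpus on a scale from 0 (caput level) to 1 (cauda level) had a median of 0.77, with quartiles of 0.52 and 1. The corpus fell in the middle stretch, from 0.25 to 0.75, for 34.1% of them, in the last stretch before cauda for 28.6% and in the first stretch after caput for 5.5%. It lay outside the range of the ends for 31.8%, by any margin and without a test, so genes level with an end may be among these. The position was taken from the TMM fit only and was not computed with library totals. The medians were alike for the 3348 genes higher in cauda (0.77) and the 3231 higher in caput (0.78).

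**Figure D2:**
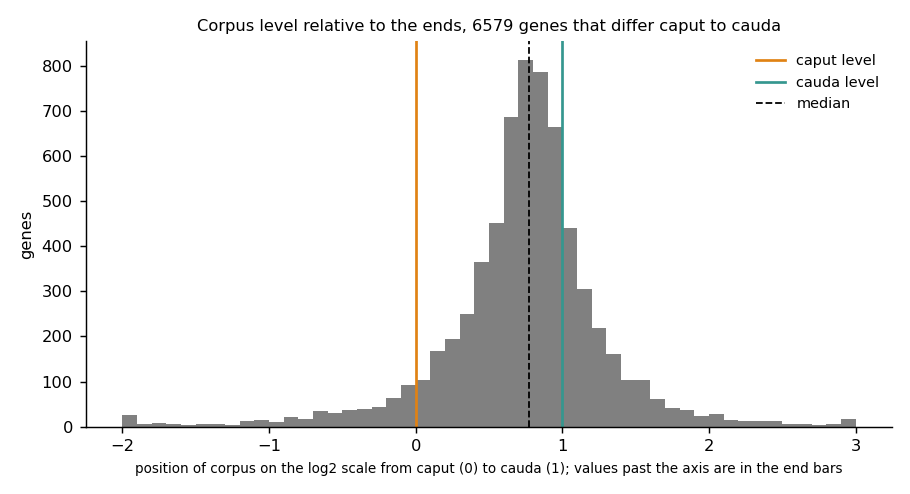
Number of genes (vertical axis) by the position of corpus between the caput level at 0 and the cauda level at 1 on the log2 scale, for 6579 genes that differ between the ends. The dashed median stands at 0.77, and values past the axis limits are gathered in the end bars.

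The genes that stood farthest above both ends held the beta-defensins Defb22 and Defb26 beside genes of varied function. Defb22, a beta-defensin of the kind found on the sperm surface, measured 852 and 649 CPM in the caput libraries, 10699 and 12131 in those of corpus and 416 and 316 in those of cauda. Every corpus library was far above every library of the ends, and the difference was 4.44 ± 0.15 (SE, 21.8-fold; edgeR adjusted p = 8.16e-07). By the authors' RPKM values, which correct for gene length, Defb22 ranked 5 among tested genes in corpus, with a mean of 17991, against 1236 in caput and 576 in cauda. Egfl7, a secreted protein best known from blood vessels, measured 114 and 131 CPM in the corpus pair, 8.15 and 10.5 in the caput pair and 2.91 and 4.25 in the cauda pair (4.4 ± 0.14, SE; edgeR adjusted p = 1.62e-07). Of the endothelial markers, Cdh5 had no read in the corpus libraries and Pecam1 stood at 0.392 and 0.456 CPM there, while Vwf measured 12.2 and 10.8 CPM in the corpus libraries, below 24.2 and 24.9 in caput and above 2.67 and 4.74 in cauda. Lgi2, a secreted leucine-rich repeat protein, measured 35.4 and 41 CPM in corpus, against 3.43 and 1.71 in caput and 2.44 and 2.78 in cauda.

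Sult1d1 and Crhbp were among the same leading genes. Sult1d1, a cytosolic sulfotransferase, was at 1.82 and 1.74 CPM in the caput libraries, 17.7 and 30.2 in those of corpus and 0.465 and 0.163 in those of cauda, a difference of 5 ± 0.29 (SE; edgeR adjusted p = 2.65e-06). Crhbp, which binds corticotropin-releasing hormone, was at 9.06 and 14.5 CPM in the corpus pair, 0.528 and 1.16 in the caput pair and 0.174 and 0.218 in the cauda pair. Neither gene's corpus libraries overlapped those of an end. The other leading genes were Mageb7-ps (4.29 ± 0.34), Higd1b (4.15 ± 0.29), Ccdc81 (4.17 ± 0.62), Ush1c (4.44 ± 0.31), Defb26 (4.18 ± 0.19), Tsnaxip1 (3.77 ± 0.17) and Fam194a (3.77 ± 0.14), all with SE. Mageb7-ps is named as a pseudogene, and its reads may be shared with its relatives. Higd1b, Tsnaxip1 and Egfl7 overlap other annotated genes, which a count without strand cannot tell apart. Ccdc81 was at 8.51 CPM in 1 corpus library and 25.2 in the other; its difference was 4.76 without corpus replicate 1 and 3.18 without corpus replicate 2, and it was no longer above both ends without either cauda library.

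**Figure D3:**
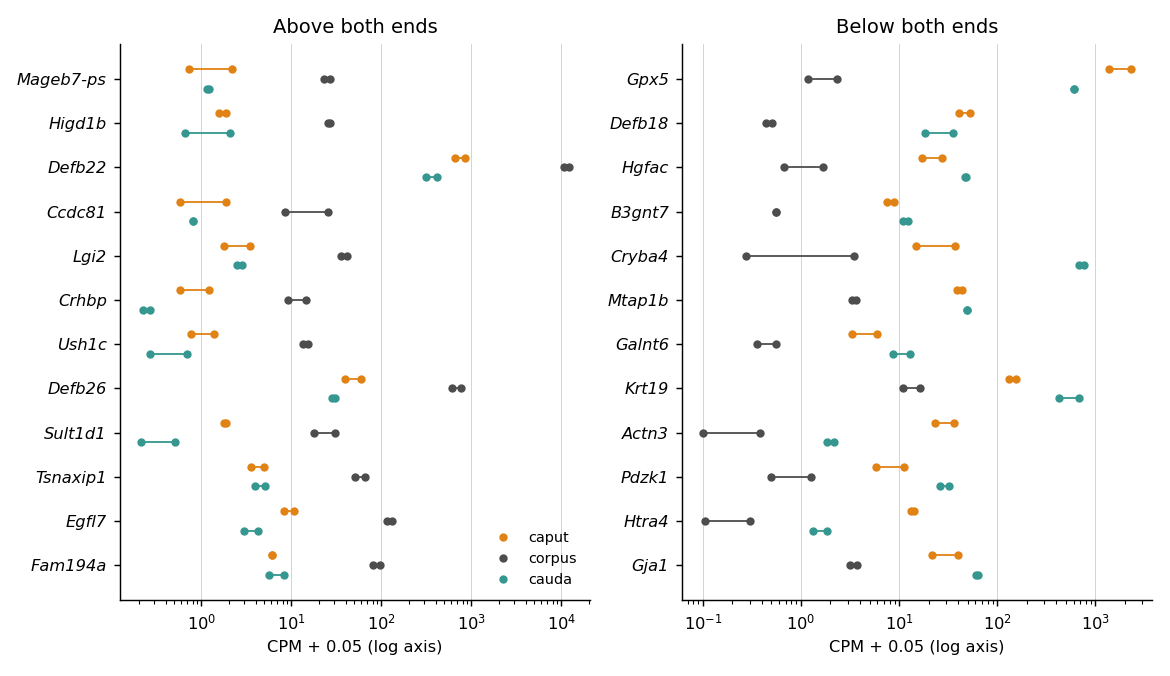
CPM plus 0.05 on a log axis for the 12 genes farthest above both ends (left) and the 12 farthest below (right); each point is 1 library, and a line joins the 2 libraries of a region. For each gene shown, the corpus points lie outside the range of the 4 others, with Defb22 at 10699 and 12131 CPM and Gpx5 at 1.12 and 2.28.

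Beta-defensins, small antimicrobial and sperm-coating peptides, were mostly higher. Of 36 tested, 19 were called higher and 7 lower (52.8% and 19.4%, against 24.8% and 23.3% of all tested genes). Above both ends were 8, where 8.55% of all tested genes were, and the median difference was 0.59. Without corpus replicate 1 the lower count was 4. Many of the risers were neighbours. In the run of 10 defensin genes on chromosome 2 (RefSeq order, GRCm38.p6), 6 were higher, 1 was lower, and 4 were above both ends (Defb23, Defb22, Defb26 and Defb29). Defb26 measured 611 and 765 CPM in corpus, against 59.9 and 39 in caput and 30.1 and 28.1 in cauda; Defb20, which lies between Defb23 and Defb22, differed by 0.19 and was not called. In the run on chromosome 8, all 4 genes were higher and Defb37, Defb38 and Defb39 were above both ends. Defb37 measured 132 and 126 CPM in the caput libraries, 1779 and 1973 in those of corpus and 439 and 553 in those of cauda, the corpus again clear of both ends. In the opposite direction Defb18 measured 0.392 and 0.456 CPM in the corpus pair, 40.3 and 52.5 in the caput pair and 18.4 and 35.7 in the cauda pair. Close relatives lose reads when only uniquely placed reads are counted, and 33.11% to 38.59% of the alignment records in each library were not unique. The share lost for the defensins was not measured, so their levels are uncertain to an unknown extent.

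The opposite pattern appeared in a neighbouring pair on chromosome 13. Gpx5, the epididymal glutathione peroxidase secreted onto sperm, measured 1.12 and 2.28 CPM in corpus, against 1367 and 2308 in caput and 607 and 603 in cauda. Both corpus libraries were below all 4 others, and the difference of -9.25 ± 0.46 (SE, 610.3-fold lower; edgeR adjusted p = 0.000107) was the largest among the genes named; it ranged from -9.87 without corpus replicate 2 to -8.84 without corpus replicate 1. Gpx6, beside it, measured 1.58 and 1.81 CPM in the caput libraries, 0.168 and 0.304 in those of corpus and 21 and 22.1 in those of cauda (-4.63 ± 0.29, SE; edgeR adjusted p = 2.35e-06). The pair moved alike in corpus but differed in level and in which end was higher.

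The 250 bases before the annotated start of these genes are shown, as RefSeq gives them for GRCm38.p6 in the direction of transcription, because they come from neighbours that stood above (Defb22, Defb26) or below (Gpx5, Gpx6) both ends together. Each was searched on both strands for GTAAACA (forkhead) and TATAAA, and capitals would mark a match. Defb22 lies on chromosome 2, chr2:152490139-152490388, Defb26 at chr2:152511737-152511986, Gpx5 at chr13:21292687-21292936 (all on the minus strand) and Gpx6 at chr13:21311953-21312202 (plus strand).
Defb22: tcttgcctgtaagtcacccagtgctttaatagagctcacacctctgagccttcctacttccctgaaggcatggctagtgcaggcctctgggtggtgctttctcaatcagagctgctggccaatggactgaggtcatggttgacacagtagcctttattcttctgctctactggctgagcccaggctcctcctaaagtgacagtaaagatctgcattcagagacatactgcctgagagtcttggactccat
Defb26: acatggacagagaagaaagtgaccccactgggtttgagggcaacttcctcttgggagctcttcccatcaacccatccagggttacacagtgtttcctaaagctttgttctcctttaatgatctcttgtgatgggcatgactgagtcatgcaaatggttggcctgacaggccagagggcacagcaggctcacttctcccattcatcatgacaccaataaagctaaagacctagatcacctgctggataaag
Gpx5: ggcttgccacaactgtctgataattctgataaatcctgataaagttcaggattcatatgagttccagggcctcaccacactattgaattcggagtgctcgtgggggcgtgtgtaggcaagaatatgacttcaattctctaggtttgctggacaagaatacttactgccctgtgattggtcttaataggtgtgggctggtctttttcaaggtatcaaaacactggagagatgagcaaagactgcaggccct
Gpx6: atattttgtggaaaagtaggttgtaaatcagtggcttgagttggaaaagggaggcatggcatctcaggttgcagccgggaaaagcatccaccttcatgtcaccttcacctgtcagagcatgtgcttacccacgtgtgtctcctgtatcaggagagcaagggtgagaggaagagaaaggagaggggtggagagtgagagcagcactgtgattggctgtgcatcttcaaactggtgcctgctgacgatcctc
Neither run of letters stood in these 4 windows, which says nothing of the factors that bind such letters. Over windows of the same length, TATAAA or its complement stood in 10.1% of 1098 promoters of genes above both ends, 5.11% of 919 of genes below both ends and 7.24% of 13393 of tested genes. For GTAAACA the shares were 2.37%, 1.63% and 2.23%. A match is a run of letters and no more, and 10492 of the 15816 tested genes could be matched to the promoter table by symbol.

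**Figure D4:**
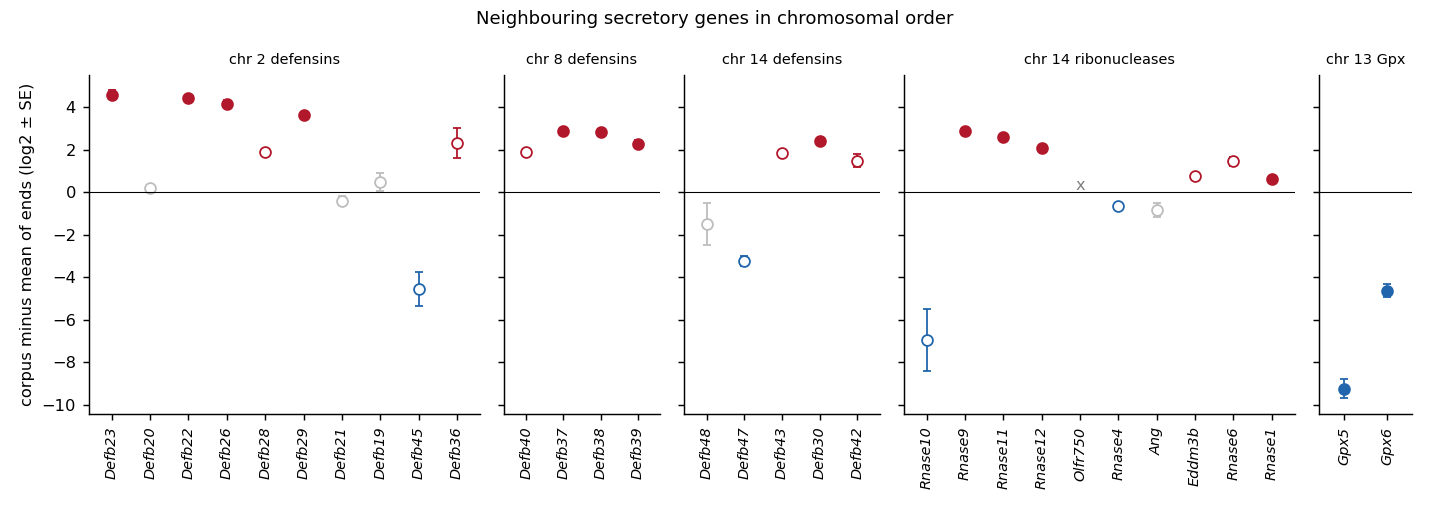
Log2 difference between corpus and the mean of the ends (points, with SE bars) for neighbouring genes in chromosomal order; filled points are above or below both ends, red is called higher, blue called lower, grey not called, and x marks a gene that was not tested. Defb22, Defb23, Defb26 and Defb29 stand at 3.62 to 4.6 while Defb45 in the same run stands at -4.55, and Gpx5 and Gpx6 are both below 0.

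Secreted proteins that coat or bind maturing sperm and the protease inhibitors of the seminal fluid followed the defensins. Of all tested genes, 24.8% were called higher, 23.3% lower and 8.55% above both ends. Of 30 tested sperm-coating genes, 17 were higher (56.7%), 8 lower (26.7%) and 12 above both ends (median 1.11), and of 46 tested protease inhibitors 27 were higher (58.7%), 8 lower (17.4%) and 8 above both ends (median 1.02). Leaving out 1 library brought the lower count of the first list to as few as 3 and the above-both count of the second to as few as 3. Wfdc13, a WAP-domain protein, measured 10195 and 11054 CPM in the corpus pair, 900.4 and 842 in the caput pair and 1614 and 1535 in the cauda pair (3.18 ± 0.07, SE; edgeR adjusted p = 7.76e-08). Npc2, a cholesterol-binding protein that is abundant in epididymal fluid, measured 7157 and 7990.2 CPM in corpus, against 748 and 645 in caput and 1731 and 1650.3 in cauda. Rnase9, a secreted ribonuclease-like protein that binds sperm, measured 353 and 361 CPM in the caput libraries, 4459 and 5247 in those of corpus and 1230.1 and 1180.4 in those of cauda. In all 3 the corpus libraries were the highest and did not overlap an end, and cauda was above caput. On chromosome 14 Rnase9, Rnase11 and Rnase12 lie side by side and were each above both ends (2.89, 2.59 and 2.07), while Rnase10, next to them, was at 0.168 and 0.253 CPM in the corpus pair, 107 and 291 in the caput pair and 1.34 and 5.83 in the cauda pair. Npy, the neuropeptide Y gene, chosen after its values were seen because it ranked 12 in corpus by the authors' RPKM, measured 4900.4 and 4631 CPM in corpus, against 236 and 183 in caput and 1529 and 1303 in cauda.

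Genes of steroid hormone action went both ways, with the enzymes Srd5a1 and Sult1e1 above both ends. Srd5a1, which turns testosterone into the stronger androgen dihydrotestosterone, measured 26.1 and 22.8 CPM in the caput libraries, 109.7 and 117 in those of corpus and 20.2 and 19.7 in those of cauda (2.36 ± 0.08, SE; edgeR adjusted p = 1.21e-07). Sult1e1, the estrogen sulfotransferase, measured 124 and 163 CPM in the corpus pair, 9.41 and 11.1 in the caput pair and 32.9 and 35.8 in the cauda pair. In the same list of 26 tested genes 8 were higher and 11 lower (30.8% and 42.3%, against 24.8% and 23.3% of all tested genes), with a median of -0.21; 4 were above both ends and 3 below both, where 8.55% and 6.1% of all tested genes were. Among those below was Tsc22d3, a glucocorticoid-induced gene, at 75.8 and 74.3 CPM in corpus, against 195 and 193 in caput and 147 and 165 in cauda. Without corpus replicate 2 or cauda replicate 1 the list's lower count was 7. Cyp17a1, which makes androgen precursors and was chosen after its values were seen, stood at 31.6 and 23.2 CPM in the caput libraries, 256 and 316 in those of corpus and 20.6 and 20.8 in those of cauda.

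Lysosomal genes split evenly. Of 56 tested, 19 were higher and 21 lower (33.9% and 37.5%, against 24.8% and 23.3% of all tested genes), with 10 above both ends and 10 below both (8.55% and 6.1% of all tested genes); the below-both count was 5 without corpus replicate 1 and 6 without corpus replicate 2 or cauda replicate 1. Lipa, the lysosomal acid lipase, measured 89.5 and 93 CPM in the corpus pair, 19.4 and 16.2 in the caput pair and 16.4 and 17.3 in the cauda pair, and Ctsh, a cathepsin, 86.5 and 71.2, then 749.6 and 750.2, then 236 and 188. Man2b1, Ctsc, Glb1, Fuca1, Cd63, Naglu, Dnase2a and Npc2 were above both ends as well. Ctsl, another cathepsin, was 1 of the 10 below both ends (-1.11 ± 0.08, SE), with others such as Ctsa, Ctsd, Ctsf, Lamp2, Scarb2, Asah1 and Arsb.

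Transport and brush border genes included both extremes. Slc2a5, the fructose transporter, measured 97.8 and 99.6 CPM in corpus, against 12.5 and 12.3 in caput and 15.8 and 14.8 in cauda (2.84 ± 0.08, SE; edgeR adjusted p = 7.76e-08). Slc39a8, a zinc and manganese transporter, measured 30.8 and 28.3 CPM in the caput libraries, 124 and 140.5 in those of corpus and 1.34 and 2.29 in those of cauda. Both were above both ends, as were 7 of 52 tested solute carriers, while 7 others were below both; 17 were called higher and 15 lower, and without corpus replicate 2 the above-both count was 3. These are shares of 32.7% and 28.8%, against 24.8% and 23.3% of all tested genes, of which 8.55% were above and 6.1% below both ends. The median of the solute carriers was 0.09, but -0.07 with library totals and -0.03 without corpus replicate 1. Among microvillus genes, Ush1c, Myo7b and Cdhr2, which together build the tip links between microvilli, were each above both ends. Myo7b measured 28.3 and 27.8 CPM in the corpus pair, 3.58 and 2.63 in the caput pair and 2.62 and 2.45 in the cauda pair, and Ush1c 1.32 and 0.717, then 13.5 and 15.4, then 0.64 and 0.218. In the same list of 41 genes 8 were higher and 20 lower (19.5% and 48.8%). Pdzk1, a scaffold of apical transporters that overlaps other annotated genes, was below both ends. It measured 0.448 and 1.22 CPM in corpus, against 5.72 and 11.1 in caput and 32.4 and 25.9 in cauda (-5.11 without corpus replicate 2). Without corpus replicate 1 the lower count was 12, and without corpus replicate 2 it was 13.

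Genes of acid and ion handling, the known work of clear cells, did not move as a block. Of all tested genes, 24.8% were called higher and 23.3% lower. Of 23 tested V-ATPase subunits 4 were higher and 8 lower (17.4% and 34.8%), with a median of -0.19; with library totals 14 were lower, and without corpus replicate 1, 5. Atp6v1a, the catalytic subunit, measured 842 and 757 CPM in the caput libraries, 167 and 164 in those of corpus and 115 and 133 in those of cauda, so corpus lay between the ends. Of 19 tested clear cell markers 1 was higher and 8 lower (5.26% and 42.1%). Their median was -0.43, and -0.18 without corpus replicate 1. Foxi1, the transcription factor that specifies such cells, measured 384 and 388 CPM in the corpus pair, 2386 and 2185 in the caput pair and 151 and 203 in the cauda pair. Atp6v1b1, the gene whose promoter drives the sort, measured 53.2 and 65.4 CPM in corpus, against 327 and 301 in caput and 16.6 and 24.2 in cauda, and its difference of -0.43 ± 0.15 (SE; edgeR adjusted p = 0.0489) was not called in 7 of 12 alternative settings, where its adjusted p reached 0.313. For both genes corpus lay between the ends, nearer the cauda on the CPM scale.

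Carbonic anhydrases went both ways. Car2, the soluble enzyme that supplies protons to the pump, measured 284 and 313 CPM in the caput libraries, 791 and 902 in those of corpus and 154 and 192 in those of cauda (1.9 ± 0.1, SE; edgeR adjusted p = 1.19e-06), and was the 1 clear cell marker above both ends. Car4, the membrane-anchored enzyme, chosen after its values were seen, measured 2054 and 2115 CPM in the corpus pair, 149.8 and 119 in the caput pair and 207 and 123 in the cauda pair (3.81 ± 0.22, SE). Car14 and Car12, membrane-bound forms, were lower than the mean of the ends and lay between them. Car14 measured 2.07 and 2.63 CPM in corpus, against 1.2 and 1.09 in caput and 125 and 123 in cauda. Its difference was -2.34 ± 0.14 (SE, edgeR adjusted p = 2.26e-06). Car12, also chosen after its values were seen, fell along the duct (-1.05 ± 0.13, SE). Slc26a3, a chloride and bicarbonate exchanger, was below both ends, at 71.5 and 70.9 CPM in corpus, against 550.4 and 511 in caput and 99.6 and 121 in cauda. In all, 6 of 29 acid-base genes were higher and 12 lower (20.7% and 41.4%, against 24.8% and 23.3% of all tested genes). Ano1, a calcium-activated chloride channel, measured 167 and 141 CPM in the caput libraries, 20.1 and 18.3 in those of corpus and 241 and 218 in those of cauda (-3.29 ± 0.11, SE; edgeR adjusted p = 1.15e-07), below both ends.

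Gja1, Krt19 and Mtap1b were among the genes farthest below both ends. Gja1, the gap junction protein connexin 43, measured 3.64 and 3.09 CPM in the corpus pair, 21.5 and 40.2 in the caput pair and 63.5 and 60.7 in the cauda pair (-3.7 ± 0.33, SE; edgeR adjusted p = 0.000283). Krt19, a keratin of simple epithelia, measured 11 and 16.1 CPM in corpus, against 131 and 157 in caput and 682 and 422 in cauda. Mtap1b, a microtubule-binding protein, measured 39 and 43.6 CPM in the caput libraries, 3.25 and 3.6 in those of corpus and 49 and 49.3 in those of cauda. Each had its corpus libraries below all 4 others by a wide margin. The keratins Krt8 and Krt18, by contrast, were slightly above both ends (0.37 and 0.58), which neither was with library totals. Galnt6 and B3gnt7, glycosyltransferases of mucin-type and poly-lactosamine chains, differed by -4.11 ± 0.43 and -4.25 ± 0.24 (SE), and both overlap other annotated genes. Hgfac, Htra4, Actn3 and Cryba4 completed the set (-4.82, -4.81, -5.32 and -6.2), and their values leaned on single libraries: without corpus replicate 2, Hgfac stood at -5.7, Htra4 at -6.23 and Cryba4 at -9.23, and without corpus replicate 1, Actn3 stood at -7.09. Cryba4, which overlaps Crybb1, kept its place below both ends in 4 of 12 settings.

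Among all tested genes 6.1% were below both ends, and retinoic acid genes were lower as a group. Of 17 tested, 11 were lower and 3 higher (64.7% and 17.6%, against 23.3% and 24.8% of all tested genes), with a median of -1.33, and 7 were below both ends; the higher count was 1 without corpus replicate 2 and 5 without caput replicate 2. Rara, a retinoic acid receptor, measured 2.69 and 3.04 CPM in the corpus pair, 17.5 and 17.1 in the caput pair and 20.2 and 20.7 in the cauda pair (-2.71 ± 0.15, SE; edgeR adjusted p = 1.01e-06). Dhrs3, which turns retinal back into retinol, measured 11.1 and 9.47 CPM in corpus, against 67.4 and 72.9 in caput and 48 and 51.7 in cauda. They included genes of uptake and storage (Stra6, Lrat), of synthesis and its reverse (Rdh10, Dhrs3) and of reception (Rara, Rarg). Hox genes, which mark position along the body axis and the duct, gave 8 lower and 2 higher of 27 tested (29.6% and 7.41%), with 5 below both ends; 0 were called higher by edgeR without either corpus library or without cauda replicate 2. Hoxb9 measured 63.4 and 66 CPM in the caput libraries, 12.6 and 13.6 in those of corpus and 62.5 and 53.3 in those of cauda, so the ends were alike and the corpus apart; Hoxa5, Hoxa9, Hoxa10 and Hoxd10 were below both ends too.

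Signalling genes of the Wnt, Notch, BMP, FGF, EGF and hedgehog pathways were mostly lower as well. Of 78 tested, 44 were lower and 12 higher, or 56.4% and 15.4%, against 23.3% and 24.8% of all tested genes. The median was -0.97, and 14 were below both ends, where 6.1% of all tested genes were. Wnt4, a secreted ligand, measured 37.3 and 33.4 CPM in the corpus pair, 70 and 72.5 in the caput pair and 239.7 and 220.3 in the cauda pair (-1.86 ± 0.08, SE; edgeR adjusted p = 3.8e-07). Among genes named after their values were seen, the inhibitory Smads Smad6 and Smad7 differed by -3.44 and -3.92, and the FGF receptors Fgfr2 and Fgfr3 by -2.74 and -2.36. The ligand Egf was above both ends (2.05 ± 0.1, SE) at 110.2 and 115 CPM in corpus, against 15.9 and 12.6 in caput and 47.1 and 56.8 in cauda, while its receptor Egfr was below both (-2), a call that was lost in 4 of 12 settings.

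The Id genes and Wnt7b also entered the lower calls, with another shape. Id3, a target of BMP signalling, measured 13.2 and 14.2 CPM in the caput libraries, 15.8 and 15 in those of corpus and 524 and 507 in those of cauda (-2.45 ± 0.08, SE; edgeR adjusted p = 1.15e-07). Its corpus and caput levels differed by 0.17 (edgeR adjusted p = 0.114), so the call reflects a step between corpus and cauda. Id2 and Wnt7b had the same step (-3.64 and -5.75 from cauda to corpus), and so did Id1 (-5.02), whose corpus level was also 0.75 above caput (edgeR adjusted p = 0.000423). Sdc1 and Aplp2 had theirs between caput and corpus, Sdc1 at 18.2 and 17 CPM in the corpus pair, 169.9 and 169.8 in the caput pair and 16.7 and 14.4 in the cauda pair. The matching genes among the higher calls were Defb43, Psph, Cad, Mtap7d2, Ramp1 and Defb40, which were 3.13 to 4.43 above caput and between 0.62 below and 0.01 above cauda on the log2 scale. Cad, the enzyme that opens pyrimidine synthesis, measured 2037 and 2076 CPM in corpus, against 239.5 and 231 in caput and 2232 and 2171 in cauda. Cad, Psph, Aplp2 and Wnt7b overlap other annotated genes.

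Interferon response genes were mostly lower. Over all tested genes, 23.3% were called lower, 24.8% higher and 6.1% below both ends. Of 39 tested interferon genes 22 were lower and 3 higher (56.4% and 7.69%), with a median of -1.12 and 11 below both ends; without either cauda library 7 were below both. Psmb8, an immunoproteasome subunit, measured 34.1 and 32.2 CPM in the caput libraries, 7.05 and 7.49 in those of corpus and 24.4 and 21.5 in those of cauda (-1.92 ± 0.12, SE; edgeR adjusted p = 2.59e-06). Irf9, part of the complex that relays the interferon signal, went the other way, at 128 and 131 CPM in the corpus pair, 61.7 and 63.5 in the caput pair and 60.2 and 65.1 in the cauda pair. Of 27 antigen presentation genes 9 were lower and 2 higher (33.3% and 7.41%, against 23.3% and 24.8% of all tested genes), with 7 below both ends; the median was -0.25, and 0.05 without corpus replicate 1. Mr1, which presents microbial vitamin metabolites, measured 8.62 and 9.82 CPM in corpus, against 51.3 and 48.8 in caput and 88.5 and 75.3 in cauda. Tlr3, the sensor of double-stranded RNA, was also below both ends (-2.09 ± 0.15, SE). The 20 mononuclear phagocyte markers summed to 30.1 and 38.3 CPM in the caput libraries, 23 and 29.5 in those of corpus and 35.3 and 37.2 in those of cauda, and Ptprc, carried by all leukocytes, was at 0.64 to 4.4 CPM over the 6 libraries.

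Most genes of protein synthesis and respiration were called higher, and few of them were above both ends. The shares over all tested genes were 24.8% higher, 23.3% lower and 8.55% above both ends. Of 81 tested ribosomal protein genes 55 were higher (67.9% against 24.8%) and 0 lower, with a median of 0.63, but 3 were above both ends, or 1 without corpus replicate 2. edgeR also found 0 lower at an unadjusted p under 0.05, as did DESeq2 and voom after adjustment, while library totals gave 1. Of 79 oxidative phosphorylation subunits 51 were higher and 7 lower, or 64.6% and 8.86% (13 lower with library totals), with a median of 0.42 and 4 above both ends. That last count was 17 with library totals and 1 without corpus replicate 2 or either cauda library. Rps3 stood at 962 and 985 CPM in the corpus pair, 216 and 224 in the caput pair and 937 and 959 in the cauda pair, the corpus being level with the cauda. Rpl3l, the form of Rpl3 known from muscle, was an exception at 203 and 194 CPM in corpus, against 20.4 and 21.9 in caput and 74.4 and 61.4 in cauda. Both lists hold short genes, and over 8 classes of gene length the median difference ran from 0.46 in the shortest to -0.18 in the seventh and -0.15 in the longest; the part of length in these counts was not tested. Glycolysis and citric acid cycle enzymes gave 6 higher and 24 lower of 44, or 13.6% and 54.5%. Their median was -0.31, and -0.24 without corpus replicate 1. Ldhb, a lactate dehydrogenase subunit, measured 762 and 743 CPM in the caput libraries, 228 and 239 in those of corpus and 1733 and 1667 in those of cauda.

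**Figure D5:**
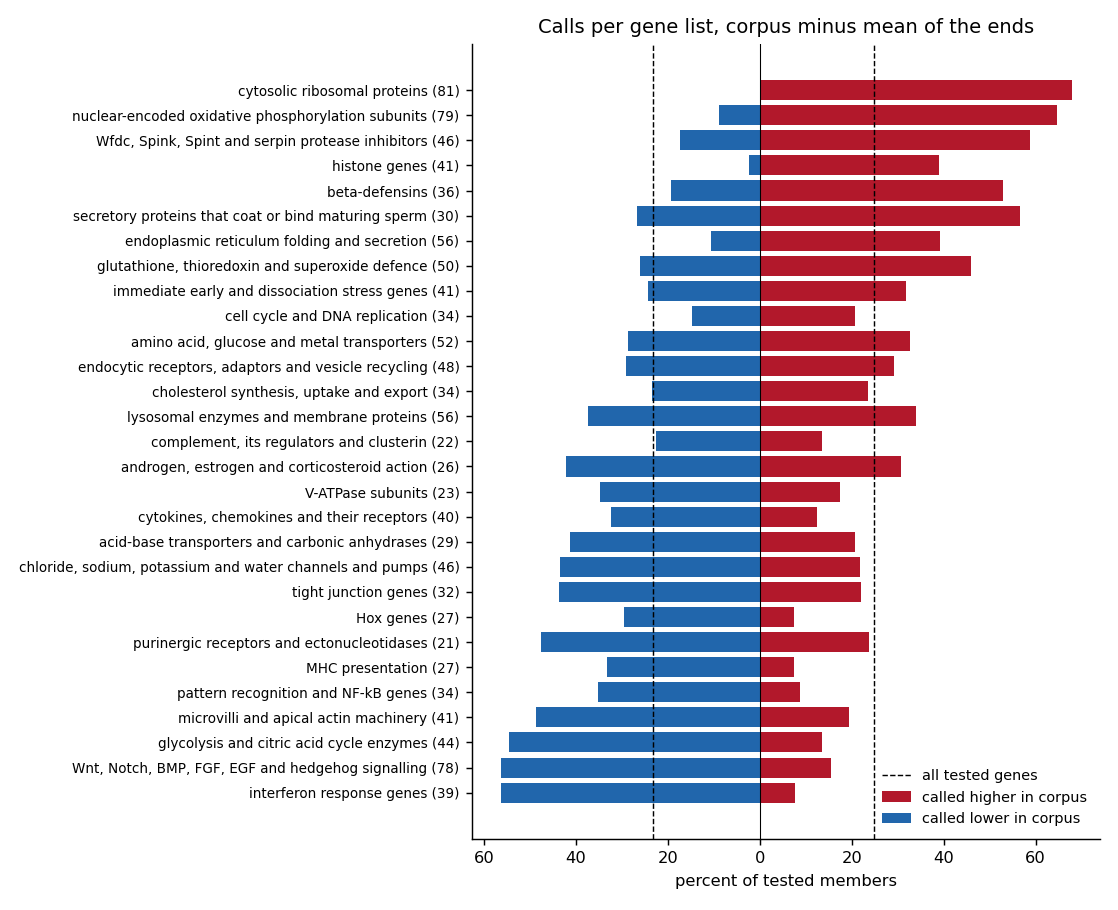
Percent of tested members called higher (red, right) and lower (blue, left) in corpus for the 29 lists with at least 20 tested members, the marker lists of cell types being left out, whose numbers stand in parentheses; dashed lines mark 24.8% and 23.3%, the shares over all tested genes. Ribosomal genes stand at the top (67.9% higher) and interferon genes at the bottom (56.4% lower).

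Antioxidant genes changed in both directions. Of 50 tested, 23 were higher and 13 lower, or 46% and 26%, against 24.8% and 23.3% of all tested genes. The lower share was thus near that of all tested genes. Above both ends were 5 and below both 6, where 8.55% and 6.1% of all tested genes were. Nqo1, a quinone reductase induced by oxidative stress, measured 335 and 365 CPM in the corpus pair, 43.6 and 33.1 in the caput pair and 95.5 and 94.3 in the cauda pair (2.54 ± 0.1, SE; edgeR adjusted p = 4.03e-07). Below both ends, beside Gpx5 and Gpx6, were Gpx1, Gclc, Ggt1 and Gstt1; the 2 subunits of the glutathione-making ligase parted, with Gclm above both ends (0.67) and Gclc below both (-0.87).

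Markers of other cell types took several shapes. Basal cell markers gave 11 lower and 3 higher of 19 tested, or 57.9% and 15.8%, against 23.3% and 24.8% of all tested genes (median -1.07). Below both ends were 4 of the 19, where 6.1% of all tested genes were. Summed levels of basal cell markers were 300.5 and 262 CPM in corpus, against 843 and 877 in caput and 306 and 255 in cauda. On this sum the corpus was near the cauda. Krt5, the basal cell keratin, measured 37.7 and 54.9 CPM in the caput libraries, 11.2 and 5.87 in those of corpus and 12.3 and 6.65 in those of cauda, and its adjusted p was 0.0488 in edgeR and up to 0.173 in the alternatives. Stromal and endothelial markers gave 0 higher and 3 lower of 19 tested (0% and 15.8%, against 24.8% and 23.3% of all tested genes). Sums were 188 and 175 CPM in the corpus pair, 622 and 689 in the caput pair and 457 and 551 in the cauda pair. Most of the sum at either end came from Dcn, a matrix proteoglycan. Dcn measured 83.9 and 88.1 CPM in the corpus pair, 570.1 and 583 in the caput pair and 329 and 376 in the cauda pair. The trough in the sums was therefore largely that of 1 gene. Among other members, Acta2 and Col3a1 were higher in both corpus libraries than in either caput library, and Vwf and Plvap lower. Without caput replicate 1 this list had 9 lower members, and without caput replicate 2 it had 3 higher. Of 14 tested sperm markers edgeR called 0, with 1 lower at an unadjusted p under 0.05; DESeq2 called 3 lower, edgeR called 4 lower without either caput library, and voom called 0. With the replicate block 2 sperm markers were called lower, and with library totals 1. Prm1, a sperm protamine, stood at 7.15 and 46 CPM in caput and at most 0.152 elsewhere. Prm2 and Tnp2 were also highest in caput, but not every sperm marker was. For Smcp, corpus replicate 1 had no read while corpus replicate 2 reached 44.7 CPM. Its cauda pair stood at 20.2 and 70.9 CPM, its caput pair at 2.61 and 32.1. The sperm markers summed to 49.2 CPM for corpus replicate 1 and 107 for corpus replicate 2. The cauda pair summed to 86.6 and 133 CPM, the caput pair to 76.8 and 293. Immediate early and dissociation stress genes gave 13 higher and 10 lower of 41 (31.7% and 24.4%, against 24.8% and 23.3% of all tested genes; median 0.11, and -0.05 with library totals), with 5 above both ends, or 2 with library totals and 3 without corpus replicate 1. Fos, an early response gene, measured 1706 and 1560.1 CPM in corpus, against 1301 and 1177 in caput and 1001 and 954 in cauda.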

How the data were processed

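RNA from sorted clear cells was sequenced after SMARTer v4 amplification, per the labels' protocols. For every library the authors deposited a file of gene read counts, and for all 6 together RPKM values with a length in bases per gene. STAR, HTSeq, edgeR and the build mm9 are listed, per the submitters' processing notes; versions and annotation were not given in the sources used here. Strand was ignored in the deposited counts, per their names. The 5 rows without a gene were dropped, among them alignments that were not unique (33.11% to 38.59% of records). The deposited RPKM served only for symbols, abundance ranks and the RPKM means given for Defb22, and the authors' length values only for length classes.

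Counts were tested with edgeR 4.0.16 in R 4.3.3 (filterByExpr by region, TMM, robust quasi-likelihood fit with region as the only factor, 3 residual degrees of freedom), two-sided, with Benjamini-Hochberg adjustment over 15816 genes and calls under 0.05. The contrast was corpus minus the mean of caput and cauda on the log2 scale. Depth was 18887128 to 24700717 reads per library; reads carry no molecular identifiers. The steps were checked on simulated counts. Alternatives were RLE factors, library totals, no filter, DESeq2 1.42.0, limma 3.58.1 voom, the replicate number as a block, each library left out, and the arithmetic mean of the ends.

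The named genes are the 12 farthest from the nearer end among those above and the 12 among those below both ends (at least 10 CPM in the highest region, no overlap of libraries), the 6 of smallest p in each direction that were called but not beyond the ends, up to 3 called members per list, and Atp6v1b1, Foxi1, Aqp9, Krt5, Ptprc and Prm1; predicted genes were passed over. Every other gene named was chosen after its values were seen. The corpus libraries and the 42 lists were chosen with earlier results of these data known, so counts over a list are descriptions without a test. Promoter sequences and gene order come from RefSeq for GRCm38.p6, a later build than the authors', and no coordinates were exchanged between them. Some genes that the lists hold are not reported here.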

Additional observations from a re-analysis of the deposited data

How the results depend on the processing

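Of 7607 genes called, 4348 were called in all 12 alternative settings, as were 662 of the 1353 genes above both ends and 415 of the 964 below both. Library totals gave 3051 higher and 5133 lower, with 1381 above and 888 below both ends, of which 985 and 619 were shared with the TMM fit. Leaving out 1 library gave 5255 to 7797 calls, 2877 to 4063 higher, 2378 to 3734 lower, 924 to 1408 above both ends and 626 to 968 below both; the lower count was 2378 without corpus replicate 2, and below both ends there were 628 without corpus replicate 1 and 626 without corpus replicate 2. The lone library of a region is then assumed to vary like the others. With the arithmetic mean of the ends in place of the mean of logs, differences changed sign for Cd52 (-0.13), Lcn12 (-1.33), Ptgds (-0.89) and Wfdc15b (-0.46), all far higher in cauda than in caput, where an arithmetic mean is set by the cauda. Replicates share a number only: the deviations of same-numbered libraries correlated at 0.19, 0.16 and 0.13 between regions, and the labels do not say what the number marks. With the replicate block, 8080 genes were called (4134 higher, 3946 lower), 1481 above both ends and 1057 below both. Low-count genes are limited by depth, with 3 reads worth 0.0879 to 0.174 CPM.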

Other observations

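Alas2, Srgn and Cd5, genes known from blood cells, stood above both ends; apart from those that the naming rule took (Alas2, Cd5), the genes of this paragraph were chosen after their values were seen. Alas2, the heme synthesis enzyme of red cell precursors, measured 3.43 and 3.75 CPM in the caput libraries, 38 and 43.1 in those of corpus and 3.43 and 4.9 in those of cauda (3.39 ± 0.14, SE; edgeR adjusted p = 3.39e-07). The haemoglobin gene Hba-a1 stood at 0 and 0.0506 CPM in the corpus libraries and at most 0.171 in the others. Hba-a2 and Hbb-b2 had no read in any of the 6 libraries. Close relatives lose reads when only uniquely placed reads are counted, and the loss for haemoglobin genes was not measured. Srgn, a proteoglycan of secretory granules in blood cells, measured 846 and 1010.2 CPM in the corpus pair, 102 and 79.7 in the caput pair and 43 and 35 in the cauda pair, and Ptprc stood at 1.79 and 3.09 CPM in corpus. Cd5, a lymphocyte surface protein, measured 5.32 and 8.1 CPM in corpus, against 1.29 and 0.478 in caput and 0.872 and 0.708 in cauda. The T cell gene Cd3e was at 0.112 and 0.354 CPM in corpus. The B cell genes Cd79a and Ms4a1 had their highest mean in corpus without being called: Cd79a measured 10.2 and 14.6 CPM in corpus, against 1.61 and 8.46 in caput and 1.74 and 8.99 in cauda, and Ms4a1 7.55 and 10.8, against 0.322 and 7.92 and then 1.16 and 4.36. The 18 lymphocyte markers summed to 67.6 and 89.5 CPM in the corpus pair, the highest of the 6 libraries. Their sums were 11.1 and 59.1 CPM in the caput pair, and 15.1 and 49.3 in the cauda pair. Of 10 tested, 2 were called higher and 0 lower. The higher share of 20% was below the 24.8% of all tested genes, but it depended on the setting. With the replicate block 4 of the 10 were called higher. The median difference was 1.14, but 0.87 without cauda replicate 1 and 2.4 without caput replicate 2. The part of lymphocyte transcripts in these genes was not tested.

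Extracellular signalling and junction genes added further departures from a gradient. Enpp2, the secreted enzyme that makes lysophosphatidic acid, measured 291 and 310.3 CPM in the corpus pair, 102 and 117 in the caput pair and 22.7 and 22.1 in the cauda pair (2.6 ± 0.07, SE; edgeR adjusted p = 8.72e-08). P2rx2, an ATP-gated channel, measured 74.8 and 80.2 CPM in corpus, against 15.4 and 10.1 in caput and 35.3 and 34.3 in cauda. Of 21 tested purinergic genes 5 were higher and 10 lower (23.8% and 47.6%), with 6 lower without corpus replicate 1. Cldn4 and Cldn8, tight junction claudins, were both below both ends; Cldn8 measured 177 and 198 CPM in the caput libraries, 116 and 116 in those of corpus and 535 and 535 in those of cauda. Il1r1, the interleukin 1 receptor, measured 7.44 and 6.79 CPM in the corpus pair, 40.7 and 35.9 in the caput pair and 26.7 and 26.3 in the cauda pair. Rrm1 and Rrm2, the subunits of ribonucleotide reductase, were above both ends together; Rrm2 measured 31 and 37.8 CPM in corpus, against 6.45 and 4.88 in caput and 14.5 and 13.8 in cauda, and 7 of 34 tested cell cycle genes were higher and 5 lower (20.6% and 14.7%, against 24.8% and 23.3% of all tested genes); the lower count was 2 without corpus replicate 1 and 3 without cauda replicate 1.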
